A study of Mus musculus with 13 samples.

Results

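Chromatin accessibility was compared between 2 kinds of haematopoietic stem cell (HSC), PLT-HSC and PEM-HSC. The assay was Omni-ATAC-seq on bulk cells: a transposase cuts and tags DNA where chromatin is open, so that reads pile up at accessible sites. The comparison takes the 3 PLT-HSC and the 6 PEM-HSC libraries, chosen by their labels, 9 of the 13 samples of the series. C57BL/6 mice each received a single Vwf+ HSC, and over 16 weeks recipients were sorted into classes by which lineages the graft rebuilt. PLT-HSC came from recipients classed as P-restricted, whose donor cell made platelets, and PEM-HSC from recipients classed as PEM-restricted, whose donor cell also made erythroid and myeloid cells. Both groups were donor-derived (CD45.2+) bone marrow cells sorted as LSK Flt3- CD150+ CD48- Gata1-, with 500 cells per replicate. The founders of both groups were thus Vwf+, both sorts left out cells expressing Gata1, and each recipient's cells descend from 1 founder cell. The sources used here give neither age nor treatment of the recipients. The comparison asked whether the loss of erythroid and myeloid output leaves a trace in accessibility, and how large a trace could have been missed.

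HSCs make all blood lineages, but single transplanted HSCs can differ stably in the lineages they restore, and platelet-biased HSCs are marked by Vwf. Lineage genes are read out by sets of enhancers and promoters, and part of these sites is already open in stem cells before the gene is expressed. Erythroid genes are opened by factors such as Gata1, Klf1 and Tal1, and myeloid genes by factors such as Spi1 and the C/EBP family. Accessibility in a bulk library is an average over cells, so fewer cells with an open site and a site less open in each cell cannot be told apart.

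The results below turn on erythroid and myeloid loci, and 4 promoters show what such a site looks like. Each sequence gives the 250 bases before the gene start, 5′ to 3′ on the gene's strand, from RefSeq on GRCm38.p6, a later build than that of the counts. Klf1 (chromosome 8, 84901732 to 84901981, + strand) and Epor (chromosome 9, 21963577 to 21963826, - strand) stand for the erythroid genes. Cebpa (chromosome 7, 35119043 to 35119292, + strand) and Csf3r (chromosome 4, 126024409 to 126024658, + strand) stand for the myeloid genes. Capitals mark each match, on either strand, to GATAA, the core recognised by GATA factors, or to GAGGAA, a core recognised by Spi1.

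Klf1: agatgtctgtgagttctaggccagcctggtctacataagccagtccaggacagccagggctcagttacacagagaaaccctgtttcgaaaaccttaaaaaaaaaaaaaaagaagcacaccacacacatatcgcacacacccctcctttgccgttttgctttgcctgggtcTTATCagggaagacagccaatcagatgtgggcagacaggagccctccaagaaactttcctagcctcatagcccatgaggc
Epor: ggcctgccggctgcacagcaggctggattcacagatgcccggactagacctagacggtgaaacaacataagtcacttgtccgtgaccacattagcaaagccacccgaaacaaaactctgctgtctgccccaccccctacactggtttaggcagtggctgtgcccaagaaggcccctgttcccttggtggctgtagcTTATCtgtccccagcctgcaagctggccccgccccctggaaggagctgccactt
Cebpa: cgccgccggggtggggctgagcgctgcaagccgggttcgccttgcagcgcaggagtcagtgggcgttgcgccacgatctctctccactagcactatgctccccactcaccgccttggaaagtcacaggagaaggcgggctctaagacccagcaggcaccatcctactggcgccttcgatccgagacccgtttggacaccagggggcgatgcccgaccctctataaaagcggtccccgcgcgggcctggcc
Csf3r: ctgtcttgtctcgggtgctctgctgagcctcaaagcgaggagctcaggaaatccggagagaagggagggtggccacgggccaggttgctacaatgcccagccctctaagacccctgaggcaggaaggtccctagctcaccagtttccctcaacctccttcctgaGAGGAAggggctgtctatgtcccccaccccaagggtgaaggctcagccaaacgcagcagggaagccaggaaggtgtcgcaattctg

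Klf1 and Epor held 1 match each to GATAA (as TTATC), Csf3r held 1 match to GAGGAA, and Cebpa held neither. Of the 32851 promoters in the table, 22.6% held GATAA and 23.3% held GAGGAA in the same length on either strand. A match describes these letters and is not a measured binding site.

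Counts were given for 115295 regions by mm9 position. PLT-HSC libraries held 2378024 to 3307889 counts (n = 3) and PEM-HSC libraries 1276962 to 3851165 (n = 6), which overlap. Of the regions, 57828 passed the filter on low counts and held 91.2% of the counts. Genome-wide similarity did not separate the groups. The mean Spearman correlation of log2 CPM (CPM is the count scaled to a common library size) was 0.872 over the 3 pairs of PLT-HSC libraries, 0.864 over the 15 pairs of PEM-HSC libraries and 0.867 over the 18 pairs between the groups. The difference of within and between pairs was -0.00154 (exact permutation test over 84 splits, one-sided, p = 0.548). PEM-HSC replicate 3 had a larger share of its counts in the 5000 strongest regions (38.2%) than the other PEM-HSC libraries (33.6% to 35.3%).

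To ask about lineage loci as a whole, regions were summed in 100-kb windows around the approximate mm9 starts of 62 genes of 5 lists, erythroid, myeloid, platelet, lymphoid and HSC. The windows come from approximate gene positions, so a region is assigned to a window and not to a gene. The summed erythroid windows (regulators, the erythropoietin receptor, globin and membrane genes) held 1809, 1818 and 2006 CPM in PLT-HSC replicates 1, 2 and 3. In PEM-HSC they held 1860 at the lowest, 1924 at the median and 2180 at the highest. PLT-HSC replicates 1 and 2 lay below all PEM-HSC libraries, replicate 3 lay among them, and the groups overlapped. PLT-HSC had a mean of 1878 ± 111 CPM (SD, n = 3), against 1950 ± 119 (SD, n = 6) for PEM-HSC. The difference of -3.73% is smaller than either SD. PEM-HSC replicate 3, the library with the larger share in strong regions, was the highest at 2180 CPM, and the difference was -1.34% without it. Without PLT-HSC replicate 3, which lay among the PEM-HSC libraries, it was -7.20%. With windows of 25 kb to each side in place of 50 kb it was -6.69%.

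The summed myeloid windows (transcription factors, colony-stimulating factor receptors and granule genes) held 2069, 2090 and 2077 CPM in PLT-HSC. PEM-HSC libraries held 1922, 2025 and 2172 CPM at the lowest, median and highest. The PLT-HSC libraries lay close together inside the PEM-HSC range. Mean values of 2079 ± 10.6 (SD, n = 3) for PLT-HSC and 2038 ± 84.6 (SD, n = 6) for PEM-HSC differ by 2.01%, less than the SD of PEM-HSC. The difference was 0.828% without PEM-HSC replicate 2 and 3.45% without PEM-HSC replicate 3. The other lists stand for output kept by both groups (platelet), output that neither class names (lymphoid) and the stem cell state (HSC). Platelet windows held 2530 ± 71.5 against 2515 ± 72.7 CPM (0.597%), lymphoid windows 1250 ± 33.2 against 1288 ± 47.0 CPM (-2.97%), and HSC windows 1679 ± 11.8 against 1649 ± 58.1 CPM (1.85%; SD, n = 3 and 6 in each). All 5 lists overlapped between the groups. No list was tested as a list, since its members were chosen with results known.

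**Figure D1:**
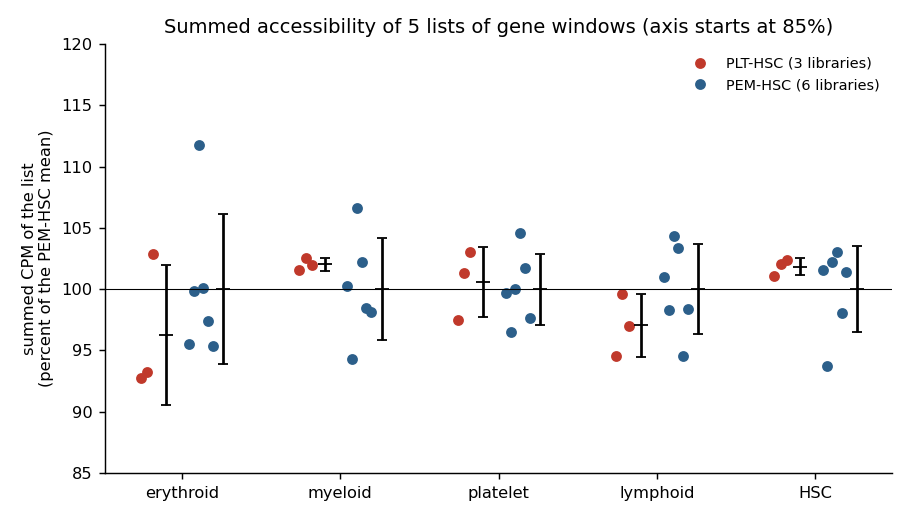
Summed CPM of the windows of each list in every library, as a percent of the PEM-HSC mean of that list. Points are libraries, and bars are the mean ± SD of 3 PLT-HSC and 6 PEM-HSC libraries. Points of the 2 groups overlap in all 5 lists, and the high erythroid point is PEM-HSC replicate 3.

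The window sums also show how much further a list would have had to move from its measured PLT-HSC values. With the PEM-HSC libraries as measured, the PLT-HSC libraries would have lain wholly below them after a further fall. This fall is 7.28% for the erythroid sum, set by PLT-HSC replicate 3, and 8.01% for the myeloid sum. They would have lain wholly above them after a further rise of 20.5% or 4.97%. These moves come on top of the differences measured above. The smallest two-sided exact permutation p that 3 against 6 libraries allow is 0.0119.

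Of the 62 windows, 60 had enough counts for the edgeR quasi-likelihood test, and 0 differed at an adjusted p under 0.05 over all loci. The Car1 window held no region and the Ctsg window 1 region under the filter. The background is 0% called of 15975 loci, and 4.29% (685 loci) at an unadjusted p under 0.05, 2.23% higher and 2.06% lower in PLT-HSC. The windows had 2 at that level, Csf2rb higher and Dntt lower. In the text below, log2 fold changes are PLT-HSC over PEM-HSC with their 95% intervals, from counts scaled by TMM, and adjusted p-values were 0.993 or more for each window.

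Among erythroid regulators, the Klf1 window (Klf1 is the erythroid Krüppel-like factor that switches on globin genes) held 206, 177 and 227 CPM in PLT-HSC. PEM-HSC held 190, 226 and 280 at the lowest, median and highest. The groups overlapped, with a log2 fold change of -0.16 (-0.38 to 0.05), the lowest of the erythroid list. Leaving out PLT-HSC replicate 2 gave -0.08, PEM-HSC replicate 3 gave -0.10, and PLT-HSC replicate 3 gave -0.25. The Gata1 window (Gata1 is the master erythroid and megakaryocytic factor, and its expression was used to gate the cells) held 131, 156 and 191 CPM in PLT-HSC and 139, 181 and 199.9 in PEM-HSC. Replicate 1 of PLT-HSC was below all PEM-HSC libraries and the others were among them, with a log2 fold change of -0.16 (-0.42 to 0.11). Leaving out PLT-HSC replicate 1 moved it to -0.03, and PLT-HSC replicate 3 to -0.32. The Tal1 window (a stem cell and erythroid factor) held 289, 322 and 314 CPM against 304, 311 and 319, a log2 fold change of -0.01 (-0.13 to 0.11), which changed sign when scaled by totals.

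Among erythroid effectors, the Hba-a1 window (alpha-globin) held 115, 107 and 109 CPM in PLT-HSC and 96.9, 105 and 108 in PEM-HSC, a log2 fold change of 0.09 (-0.06 to 0.24). The Hbb-b1 window (adult beta-globin) held 40.9, 47.7 and 43.7 CPM in PLT-HSC and 38.0, 40.5 and 45.2 in PEM-HSC. Its log2 fold change was 0.09 (-0.15 to 0.34). The Epor window (the erythropoietin receptor) held 164, 166 and 184 CPM against 149, 164 and 199, a log2 fold change of 0.04 (-0.13 to 0.21). Libraries of the groups overlapped in each of these 3 windows. Over the list, 4 windows had values above 0 and 7 below, with a median log2 fold change of -0.02 and a range of -0.16 to 0.09. The lowest bound of the 11 intervals was -0.42, at Gata1.

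In the myeloid list, the Csf2rb window (the shared beta chain of the GM-CSF and interleukin-3 receptors) held 80.9, 88.3 and 84.4 CPM in PLT-HSC. PEM-HSC held 64.1, 72.5 and 78.8 at the lowest, median and highest. All 3 PLT-HSC libraries lay above all PEM-HSC libraries, the only such window, beside a background of 2.22% of loci that do not overlap in either direction and 1.08% with PLT-HSC above. Its log2 fold change was 0.24 (0.05 to 0.43; adjusted p = 0.993, edgeR quasi-likelihood test). With 25 kb to each side the value was 0.36, and with 100 kb it was 0.12 and the groups overlapped. It did not pass the adjusted threshold at any of these widths, and the direction is towards more accessibility in the cells without myeloid output.

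The Csf3r window (the G-CSF receptor) had the lowest myeloid value. It held 67.5, 61.2 and 65.7 CPM in PLT-HSC and 58.4, 70.1 and 79.95 in PEM-HSC, which overlap, a log2 fold change of -0.13 (-0.34 to 0.09). With 25 kb to each side the Csf3r value was -0.15 (-0.465 to 0.164). With 100 kb it was -0.127 (-0.248 to -0.005), an interval that does not cross 0. The window did not pass the adjusted threshold at any of these widths. For the factors, the Spi1 window held 264, 260.1 and 263 CPM in PLT-HSC against 251, 259 and 291 in PEM-HSC, a log2 fold change of -0.01 (-0.13 to 0.12), which changed sign when scaled by totals. The Cebpa window, around the factor that starts granulocyte differentiation, held 159, 154 and 147 against 138, 149 and 155 CPM, a log2 fold change of 0.07 (-0.07 to 0.21). The Irf8 window (a monocyte and dendritic cell factor) had a log2 fold change of 0.05 (-0.16 to 0.25).

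Windows of the granule genes were also close. The Mpo window (myeloperoxidase) held 183, 172 and 201 CPM in PLT-HSC and 172, 181 and 240.4 in PEM-HSC, a log2 fold change of -0.03 (-0.22 to 0.17). The highest was PEM-HSC replicate 3, and the value became 0.05 without that library and 0.27 in a 50-kb window. The Elane window (neutrophil elastase) held 268, 282 and 265 CPM against 237, 274 and 279.5, a log2 fold change of 0.01 (-0.12 to 0.14). Of the 15 myeloid windows, 10 had values above 0 and 5 below, with a median log2 fold change of 0.05, and the intervals together reached from -0.34 at Csf3r to 0.50 at S100a8.

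**Figure D2:**
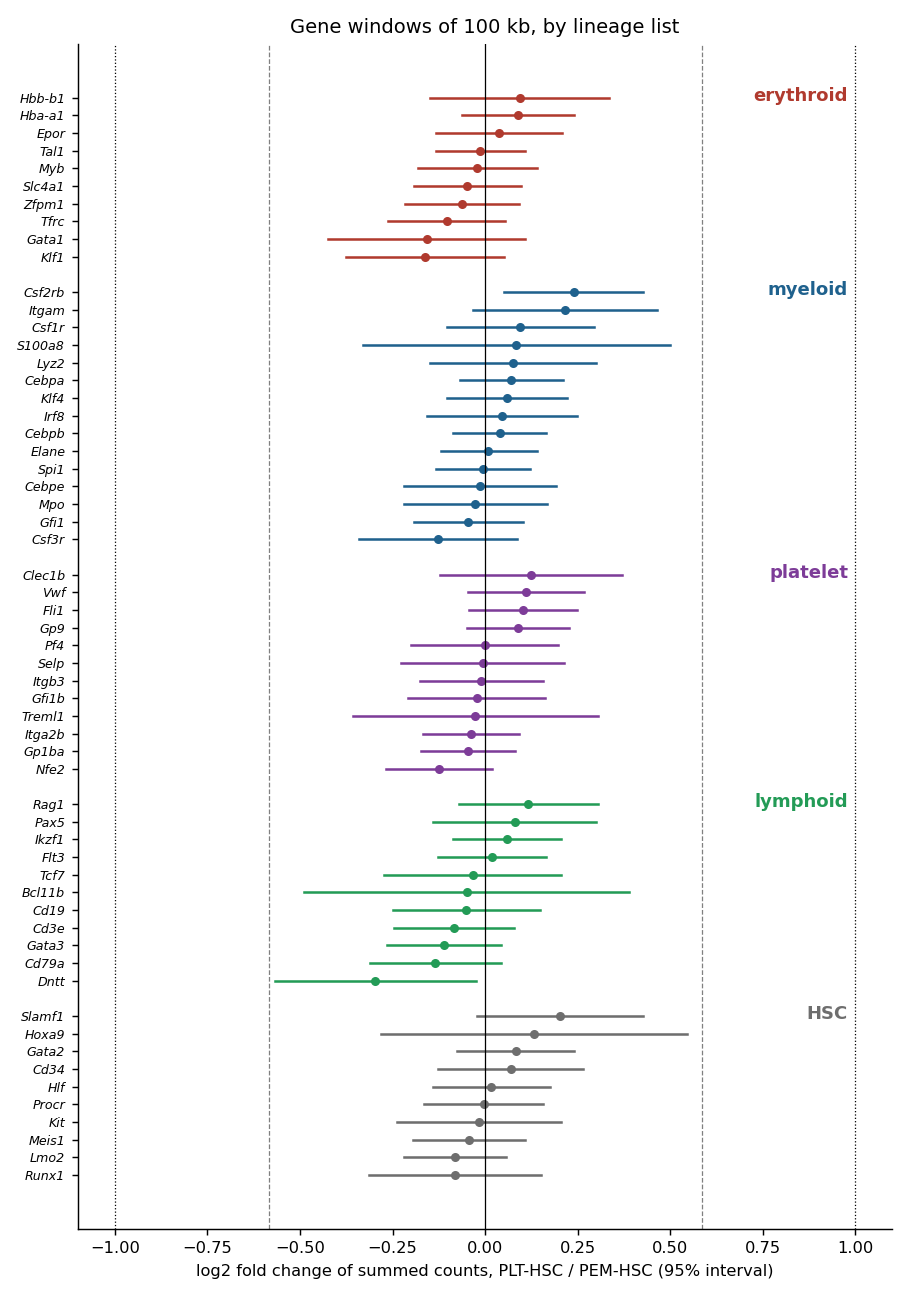
Log2 fold change (PLT-HSC over PEM-HSC) of the summed counts of each 100-kb gene window, with its 95% interval, for 58 windows in 5 lists. Dashed lines mark a 1.5-fold and dotted lines a 2-fold difference. All 58 intervals drawn lie within the 1.5-fold lines, and those of Csf2rb and Dntt do not cross 0.

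The platelet list holds genes of the output that both groups keep. The Vwf window (von Willebrand factor, whose reporter marked the founder cells) held 242, 234 and 229 CPM in PLT-HSC against 181, 227 and 233 in PEM-HSC. The groups overlapped, with a log2 fold change of 0.11 (-0.04 to 0.27). The value depends on the window's width and was 0.50 in a 50-kb window. The Nfe2 window (a megakaryocyte factor needed for platelet release) had the lowest value, with 275, 272 and 306 CPM against 271, 309 and 333, a log2 fold change of -0.12 (-0.27 to 0.02). The windows of Pf4 (platelet factor 4) and Itga2b (integrin alpha-IIb) had log2 fold changes of -0.001 and -0.04. Of the 13 windows, 4 had values above 0, with a median log2 fold change of -0.01.

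Lymphoid output is in the name of neither class. The Dntt window (the terminal transferase of lymphoid progenitors) had the value farthest from 0 of all windows. It held 46.5, 63.8 and 50.9 CPM in PLT-HSC and 56.3, 64.0 and 77.5 in PEM-HSC, with replicates 1 and 3 of PLT-HSC below all PEM-HSC libraries and replicate 2 among them. Its log2 fold change was -0.30 (-0.57 to -0.02; adjusted p = 0.993, edgeR quasi-likelihood test). The Rag1 window (a recombinase of lymphocyte receptor genes) was at 0.12. The list's median log2 fold change was -0.05, with 4 windows above 0 and 7 below. In the HSC list, 5 windows had values above 0 and 5 below, with a median of 0.01. Slamf1, which encodes the sorted marker CD150, was the highest at 0.20 (-0.02 to 0.43), and Lmo2, a stem cell factor, was at -0.08. All 10 HSC windows held tested regions, but the filter took the libraries of both groups together. A region was thus tested in both groups or in neither, and this cannot check the label. Over windows of the same length, the Meis1 window held 178 ± 11.6 and 184 ± 14.1 CPM and that of the HSC gene Gata2 held 239.2 ± 18.3 and 226 ± 18.1 in PLT-HSC and PEM-HSC. The window of the granule gene Elane was higher than both, at 272 and 269 CPM, and that of S100a8 in the myeloid list was lower, at 21.8 and 20.5. Such sums depend on the number of regions summed, 22 at Elane, 18 at Gata2, 13 at Meis1 and 9 at S100a8. These few picked windows do not show whether HSC genes differ in level from genes of mature cells.

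Single regions in the windows could hide in a sum, so each was also tested alone, and 0 passed an adjusted p under 0.05. In the erythroid windows 98 of 146 regions were tested, with 1 higher and 3 lower at an unadjusted p under 0.05 and a median log2 fold change of -0.01. In the myeloid windows 118 of 193 were tested, with 3 higher and 1 lower and a median of 0.05. The platelet windows had 3 higher and 0 lower of 136 tested, the lymphoid windows 0 and 1 of 88, and the HSC windows 1 and 1 of 97. Over all 57828 tested regions the share at that level was 4.63%, 2.45% higher and 2.18% lower, so the counts in each list are near or under the background. The 3 lower erythroid regions lay in the Tfrc, Slc4a1 and Klf1 windows. The first spans chromosome 16 from 32645251 to 32646000, near the transferrin receptor gene, at 11.2 against 18.9 CPM, a log2 fold change of -0.69 (-1.18 to -0.21). The region in the window of Slc4a1, the anion exchanger of the red cell membrane, spans chromosome 11 from 102236617 to 102237609. It held 2.96, 3.80 and 3.62 CPM in PLT-HSC and 2.33, 8.02 and 10.9 at the lowest, median and highest in PEM-HSC, a log2 fold change of -1.099 (-1.92 to -0.28) on 142 counts. It is the 1 region of that window with 25 kb to each side. The region in the Klf1 window spans chromosome 8 from 87395197 to 87396959, at 24.2 against 34.0 CPM, a log2 fold change of -0.44 (-0.78 to -0.11). The 1 higher erythroid region lay in the Hba-a1 window, on chromosome 11 from 32150931 to 32151401. It held 4.55 against 1.94 CPM, a log2 fold change of 1.09 (-0.01 to 2.19) on 73 counts. The 2 groups overlapped in the 3 lower regions and in this one, and none of them passed the adjusted threshold.

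Regions at the gene starts, within 1 kb of the approximate start, were present for 47 of 62 windows, and 42 were tested. None differed even at an unadjusted p under 0.05 (edgeR), beside the 4.63% of all regions. The median log2 fold change was -0.13 over 8 erythroid starts and 0.07 over 10 myeloid starts. The region nearest the Klf1 start (chromosome 8, 87426416 to 87427625 in mm9) held 36.1, 26.6 and 48.2 CPM in PLT-HSC. PEM-HSC held 36.3, 42.2 and 52.1 at the lowest, median and highest, and the log2 fold change was -0.22 (-0.54 to 0.09). The PLT-HSC libraries spread more widely than the difference of the means. This region lay 416 bases from the approximate start, on the side of the gene body, so it may not cover the promoter bases printed above. Those bases were not converted to mm9.

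The region nearest the Epor start (chromosome 9, 21765886 to 21767501) held 37.6, 29.6 and 40.4 CPM against 25.1, 30.9 and 46.3, a log2 fold change of 0.10 (-0.24 to 0.45). It lay 499 bases from the approximate start, also on the side of the gene body, and may not cover the printed bases. At the Cebpa start (chromosome 7, 35903032 to 35904799) PLT-HSC held 53.3, 46.0 and 51.8 CPM and PEM-HSC 40.1, 51.4 and 59.95, a log2 fold change of 0.02 (-0.22 to 0.27). At all 4 genes whose promoters are printed above, the start region held counts in every library of both groups. The region at the Gata1 start was under the filter on low counts and was not tested. The weakest of the 4 was the Csf3r start (chromosome 4, 125701323 to 125702175), with 5.63, 4.65 and 6.03 CPM in PLT-HSC and 5.52, 6.67 and 10.4 in PEM-HSC. Its log2 fold change of -0.34 (-0.93 to 0.24) rests on 155 counts in all.

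Over the whole genome, 0 of 57828 regions (0%) differed at an adjusted p under 0.05 in the edgeR quasi-likelihood test, with 2678 at an unadjusted p under 0.05. DESeq2 also called 0, with 1497 at that level. The smallest adjusted p was 0.116. Log2 fold changes had a median of -0.01, 5% to 95% of them lay between -0.51 and 0.53, and 741 regions (1.28%) had a fitted change of at least 2-fold. Libraries of the groups did not overlap in 1307 regions (2.26%), 715 (1.24%) with PLT-HSC above and 592 (1.02%) with PLT-HSC below. The count of 0 depends on the libraries. Without PLT-HSC replicate 3 it was 17 regions (9 higher, 8 lower), without PEM-HSC replicate 3 it was 7, and 0 to 2 when any other library was left out. A fit with the replicate number as a block called 59 (20 higher, 39 lower), and the labels do not say whether equal numbers are pairs.

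**Figure D3:**
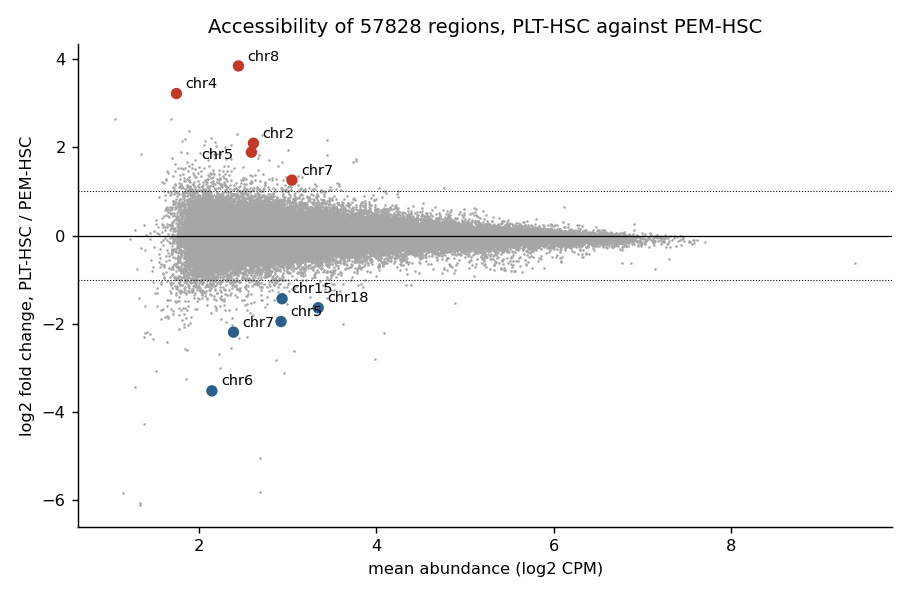
Log2 fold change against mean abundance (log2 CPM) for 57828 regions, with the 5 lowest p-values of each direction in colour and dotted lines at 2-fold. The spread narrows with abundance, and none of the regions, coloured ones included, passed the adjusted threshold.

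The regions of smallest p are described here for what they held. The region on chromosome 6 from 113810669 to 113811399 held 0.296, 0.422 and 0.603 CPM in PLT-HSC and 2.60, 5.42 and 8.29 at the lowest, median and highest in PEM-HSC. All PLT-HSC libraries lay below all PEM-HSC libraries, on 4 counts against 85. Its log2 fold change of -3.52 (SE 0.79) had an adjusted p of 0.116 in edgeR. On chromosome 2, the region from 173615343 to 173616110 held 15.1, 7.60 and 8.14 CPM in PLT-HSC and 0.789, 2.48 and 4.21 in PEM-HSC. PLT-HSC lay above without overlap, on 96 counts against 36, and its log2 fold change of 2.09 (SE 0.36) had an adjusted p of 0.116 in edgeR. On chromosome 8, the region from 109375200 to 109375984 held 8.59, 12.7 and 13.3 CPM in PLT-HSC, against 0, 0.259 and 3.16 in PEM-HSC, on 103 counts against 11. Its log2 fold change was 3.84 ± 0.76 (SE), with an adjusted p of 0.416 in edgeR. Whether these regions pass depends on the filter and on single libraries. With no filter on low counts, the chromosome 2 and chromosome 6 regions both had an adjusted p of 0.0284. The adjusted p was 0.0157 for the chromosome 2 region without PLT-HSC replicate 3, and 0.0349 for the chromosome 6 region without PEM-HSC replicate 3. For the chromosome 8 region it was 0.044 when PEM-HSC replicate 6 was left out, and 0.000552 when the libraries below 2000000 counts were.

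The other regions of smallest p had adjusted p-values of 0.315 to 0.498. Higher in value in PLT-HSC were regions on chromosome 5 (91129095 to 91129689, log2 fold change 1.89), chromosome 7 (130251625 to 130252345, 1.26) and chromosome 4 (27435662 to 27436005, 3.22). Lower in value were regions on chromosome 5 (36263968 to 36264856, -1.95), chromosome 15 (63853365 to 63853914, -1.43), chromosome 18 (12090062 to 12090577, -1.64) and chromosome 7 (71146432 to 71146924, -2.19). In 2 of the 10, the higher one on chromosome 5 and the one on chromosome 18, the groups overlapped. Lack of overlap in the others follows largely from choosing by p, and is found in 2.26% of all tested regions. With the region itself left out, the rest of each locus lay nearer to 0 than the region. The summed log2 fold changes lay between -0.18 and 0.43, with unadjusted p-values of 0.148 to 0.986, and the region on chromosome 4 had no other region in its locus.

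**Figure D4:**
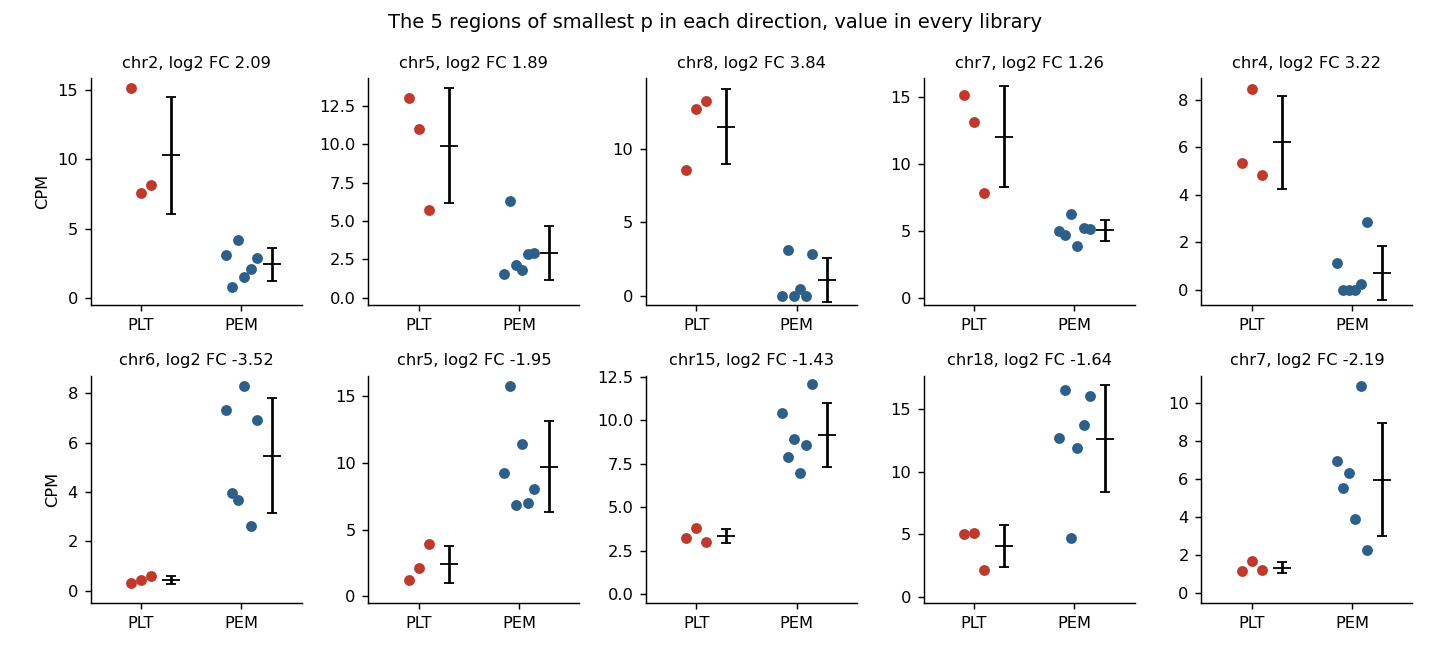
CPM of the 10 regions with the lowest p-values, 5 for each direction, by chromosome, in each of 3 PLT-HSC and 6 PEM-HSC libraries, with the mean ± SD beside the points. The groups do not overlap in 8 of the 10, against 2.26% of all tested regions. The 10 were chosen by p from these same libraries, so this count is no support for them. Several PLT-HSC or PEM-HSC libraries lie near 0 CPM.

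Summing over loci asks for small shifts spread over many regions. Of 15975 loci (the gene windows, and 100-kb bins of the rest of the genome), 0 were called (0%), with a smallest adjusted p of 0.993 and 685 at an unadjusted p under 0.05. DESeq2 also called 0, with 494 at that level. Leaving out 1 library gave 0 to 2 called loci, the 2 without PLT-HSC replicate 3, and the replicate block called 35. The locus of smallest p among those lower in PLT-HSC lay on chromosome 12 and held 5 regions from 15807040 to 15824778. It had 66.9, 68.8 and 72.0 CPM in PLT-HSC against 83.1, 91.9 and 99.4 in PEM-HSC, without overlap, and a log2 fold change of -0.41 (-0.59 to -0.22). The locus around the chromosome 2 region, 4 regions from 173609820 to 173621078, had 26.7, 19.9 and 15.1 CPM against 6.31, 9.45 and 13.3 in PEM-HSC, a log2 fold change of 1.04 (0.52 to 1.56). On chromosome 16, 4 regions from 93028660 to 93083753 had 48.6, 46.5 and 59.97 CPM against 28.4, 35.5 and 41.9, a log2 fold change of 0.56 (0.27 to 0.85). The other 3 loci of smallest p were that on chromosome 4, which is the single region above, and, with log2 fold changes of -0.40 and -0.63, a group of 11 regions at 173009457 to 173090693 of chromosome 2 and a group of 6 at 14510561 to 14581019 of chromosome 19. None of these 6 passed the adjusted threshold (adjusted p = 0.993, edgeR quasi-likelihood test), and libraries do not overlap in 2.22% of all loci. Larger bins gave the same count. Of 2454 bins of 1 Mb, 0 were called (0%) in edgeR and 90 (3.67%; 1.79% higher, 1.87% lower) had an unadjusted p under 0.05, with a smallest adjusted p of 0.454. DESeq2 called 0 as well, with 105 at that level, leaving out PLT-HSC replicate 2 gave 1, and the replicate block called 13. The groups did not overlap in 48 bins (1.96%), with PLT-HSC above in 21 (0.856%) and below in 27 (1.1%). Of 21 chromosomes, 0 were called.

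How large a difference could have been missed depends on the level of summing. For a single region, the 95% interval reached a median of 1.49-fold to either side of the estimate. It lay within a 2-fold change for 41975 regions (72.6%) and within a 1.5-fold change for 18038 (31.2%). The share within 2-fold fell to between 56.8% and 58.7% when 1 PLT-HSC library was left out. A region 2-fold or more lower in PLT-HSC was within the interval for 8152 regions (14.1%), and one 4-fold or more lower for 713 (1.23%). To be found with 80% power after correction over all regions (Bonferroni), the median region needed a 4.19-fold difference.

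The limit differed with the abundance and the width of a region. The regions were divided into 4 equal sets by abundance. In the weakest set (2.08 to 5.60 CPM) 32.0% of intervals lay within 2-fold and an 8.04-fold difference was needed, whereas in the strongest (19.6 to 677 CPM) 98.1% lay within 2-fold and a 2.07-fold difference was needed. Narrow regions were the less precise, with 52.3% of intervals within 2-fold in the narrowest set of 4 and 95% in the widest.

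Summing narrowed the limit. Over all loci the interval reached a median of 1.24-fold, 86.0% lay within 2-fold, and 2.13-fold was needed for 80% power after correction. For the gene windows the interval reached a median of 1.13-fold, and 46 of 60 intervals lay within 1.25-fold. The median erythroid window needed a 1.17-fold difference for 80% power at an unadjusted 0.05 and 1.48-fold after correction, and the median myeloid window 1.21-fold and 1.62-fold. Bins of 1 Mb needed 1.33-fold after correction. Differences smaller than these, or limited to a few weak regions, could have been present and not been called. The limits of windows and bins are for all their counts together, so a larger difference at a few of their regions could be diluted in the sum.

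**Figure D5:**
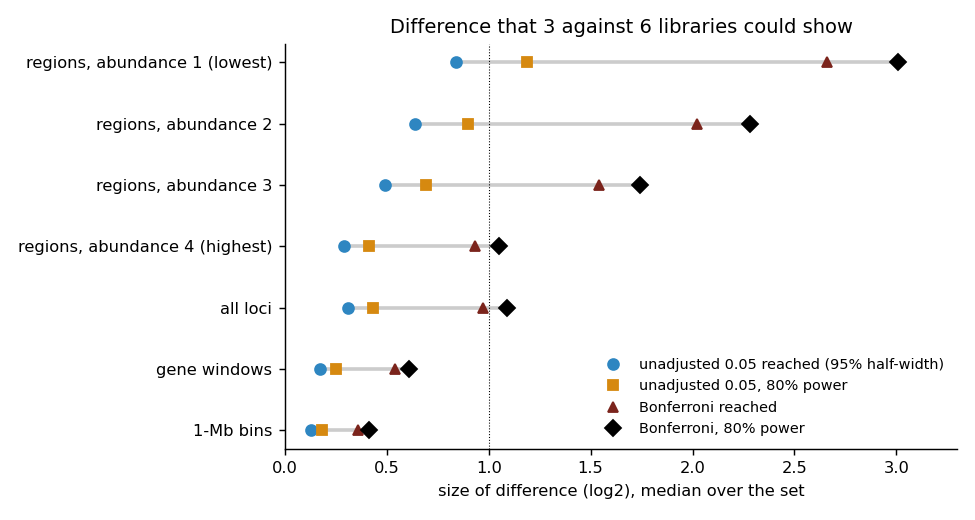
Median size of difference (log2) that reached an unadjusted p of 0.05, that was found with 80% power at that level, and the same after Bonferroni correction, for regions in 4 sets of abundance, all loci, gene windows and 1-Mb bins. The dotted line marks 2-fold, which regions of all 4 sets and all loci exceed at 80% power after correction, from 2.07-fold to 8.04-fold, and the gene windows and 1-Mb bins do not.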

How the data were processed

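The authors deposited raw counts per accessible region (whole numbers), 1 column per library. According to the submitters' processing notes, the tools were MACS2, Picard, SAMtools, Bowtie2, FastQC and Trim Galore, with the mm9 genome. The sources used here do not say how counting, pooling for peak calling, duplicate removal or the transposase shift were done. Sites called from pooled libraries would favour those open in the deepest ones.

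The 3 PLT-HSC and 6 PEM-HSC columns were fitted alone in edgeR 4.0.16 (R 4.3.3; filterByExpr by group, TMM, robust quasi-likelihood fit and test, two-sided). Benjamini-Hochberg adjustment ran over all tested features, called at 0.05. Intervals at the 95% level are Wald intervals on the fit's quasi-dispersion. CPM uses TMM-scaled totals, and log2 CPM a prior count of 2. Sums were fitted likewise. Every region entered 1 locus by its midpoint, first 62 gene windows, then 100-kb bins. The scripts were tested on simulated data.

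No mm9 annotation was used, and window centres are approximate mm9 gene starts from general knowledge. All 62 symbols are in the GRCm38 gene table, and 42 of 43 neighbouring pairs have the same order there. A region lay within 1 kb of 47 of the 62 centres, whereas 10.1% of the spanned genome lies that close to a region.

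Members, windows and lists were chosen with earlier results of these data known. The text names the 5 regions and 3 loci of smallest p per direction, 15 preset windows and, by p, the first window per direction of each list. The windows of S100a8, Meis1 and Gata2 and the regions in the Tfrc, Slc4a1, Klf1 and Hba-a1 windows were chosen after their values were seen. Of the windows, 2 enter the sums and counts but are not reported singly here. Nothing in the labels says that replicates are separate recipients: the p-values then describe only how these samples scatter, and that scatter may be technical. No 2 libraries of a group were duplicates within sampling noise (chi-square per degree of freedom 1.49 to 2.50). Alternatives were DESeq2 1.42.0, totals, loess offsets (limma 3.58.1), other filters, no robust estimation, thinning, other windows, a replicate block, and leaving out libraries.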

Additional observations from a re-analysis of the deposited data

Results flagged for a closer look

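In 6 of 53 sets of PEM-HSC values, 1 library lay apart from the other 5 by Dixon's criterion at the 95% level, which chance meets in about 1 of 20 sets. PEM-HSC replicate 3 accounts for 4 of them. It had 2180 CPM over the erythroid windows (others 1860 to 1953), 240.4 CPM in the Mpo window (others 171.8 to 190.4), 38.2% of its counts in the 5000 strongest regions (others 33.6% to 35.3%) and a TMM factor of 0.971 (others 0.993 or more). PEM-HSC replicate 2 had 236.7 CPM in the Elane window (others 272 to 279.5). It also had 6.311 CPM in the region on chromosome 5 from 91129095 to 91129689 (others 1.544 to 2.877), which is why the groups overlap there. PEM-HSC replicate 3 was high in the erythroid sum and the Mpo window together with its share of strong regions; the part of that share in the 2 values was not tested.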

How the results depend on the processing

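The 5 lists moved by less than 1 SD of the PEM-HSC libraries in 70 of 70 refits. That is a loose measure, since this SD is larger than the difference of each list. The erythroid difference ran from -7.20% without PLT-HSC replicate 3 to -1.34% without PEM-HSC replicate 3. The platelet list, at 0.597%, changed sign in some refits (-0.799% without PLT-HSC replicate 3, -1.27% without libraries under 2000000 counts). Of the regions, 0 were called with totals, loess offsets, a mean of at least 20 counts, DESeq2, no robust estimation and thinning. With no filter 4 were called, without libraries under 2000000 counts 3, and 0 to 17 when 1 library was left out. Loci gave 0 to 2 and 1-Mb bins 0 to 1 when 1 library was left out. The replicate block called 59 regions (20 higher, 39 lower), 35 loci and 13 bins, and PEM-HSC replicates 4 to 6 have no partner in it. In it the named regions of chromosome 6 and chromosome 8 also passed the threshold. On another measure of correlation, on which pairs of other numbers ranged from -0.165 to 0.213, same-numbered libraries were at 0.00401, 0.0968 and 0.0665. The Spearman correlations of log2 CPM for the same pairs were 0.883, 0.846 and 0.866. No PLT-HSC library had its highest value on that other measure with its own number, but replicate 2 was close to a tie. It was at 0.0968 with its own number and 0.097 with PEM-HSC replicate 5. The numbers were not taken as pairs, and the labels do not say whether they are. The share of region intervals within 2-fold, 72.6% in the main fit, was 55.3% with the replicate block and 65.3% without libraries under 2000000 counts. It was 56.8% to 58.7% without 1 PLT-HSC library and 67.3% to 71.1% without 1 PEM-HSC library. After thinning it was 75.1% (26475 regions), where fewer regions were tested. The number of loci was 20918 and 8315 with windows of 25 kb and 100 kb to each side. It was 24386 with regions stitched at gaps up to 10 kb, and the number of loci tested differs among these. The similarity of libraries, within minus between groups, was 0.000135 with a mean of at least 20 counts, 0.00414 after thinning and -0.00914 to 0.00311 when 1 library was left out. The difference in library total was -422300 counts without libraries under 2000000 counts, an alternative chosen after seeing the data, as was leaving out each library for the 4 library summaries. Window values near 0 changed sign in 34 of 420 refits, with a smallest adjusted p of 0.284 over all 420, and the cause was not tested. With totals Tal1 was at 0.002, Spi1 at 0.010 and Pf4 at 0.013. With loess offsets Tal1 was at 0.023, Spi1 at 0.028, Mpo at 0.003 and Pf4 at 0.016. With DESeq2 Pf4 was at 0.004. With the replicate block Epor was at 0 and Pf4 at 0.100, as was Pf4 after thinning. Without libraries under 2000000 counts Spi1 was at 0.007, Mpo at 0.052, Elane at -0.021 and Irf8 at -0.018. With 25 kb to each side Mpo was at 0.272, Elane at -0.039 and Irf8 at -0.013, and with 100 kb Elane was at -0.032, Irf8 at -0.070 and Pf4 at 0.078. When 1 library was left out, Epor ranged from -0.021 to 0.091, Tal1 from -0.042 to 0.031, Spi1 from -0.020 to 0.024, Mpo from -0.094 to 0.050, Elane from -0.019 to 0.025, Irf8 from -0.038 to 0.107 and Pf4 from -0.052 to 0.070. Named regions passed the threshold in 13 of 165 refits and reversed in none of them.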

Other observations

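The Vwf locus had a value that depends on where it is summed, and it was picked out after its values were seen. In a window of 25 kb to each side of the approximate gene start, PLT-HSC held 71.1, 86.2 and 63.9 CPM. PEM-HSC held 44.9, 46.7 and 67.2 CPM at the lowest, median and highest. PLT-HSC replicates 1 and 2 lay above all PEM-HSC libraries, replicate 3 lay below PEM-HSC replicate 5, and the groups overlapped. The means were 73.7 ± 11.4 CPM (SD, n = 3) and 50.8 ± 8.73 CPM (SD, n = 6). The fitted log2 fold change was 0.50 ± 0.13 (SE; 0.23 to 0.77), with an adjusted p of 0.994 in edgeR, and the window ranked 22 of 24932 loci by p. Of its 14 regions 4 were tested, and their log2 fold changes were 0.42, 0.62, 0.61 and 0.37. The strongest of these by p spans chromosome 6 from 125502655 to 125503454, with 31.4, 32.1 and 22.9 CPM in PLT-HSC and 14.7, 17.9 and 24.2 CPM at the lowest, median and highest in PEM-HSC. With 50 kb to each side the log2 fold change was 0.11, where a stronger region from 125522339 to 125523956, at -0.14, enters the sum, and with 100 kb it was 0.06. Vwf expression marked the founder cells of both groups.

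Of the tested regions, 6 had a fitted log2 fold change beyond 4 in size, all lower in PLT-HSC, and none was among those of smallest p. In 3 of them PLT-HSC had 0 counts in all 3 libraries, which allows up to 3 counts by counting error. The region on chromosome 3 from 151755448 to 151756041 had 12, 7, 7, 9, 0 and 7 counts in PEM-HSC replicates 1 to 6 (adjusted p = 0.954, edgeR). Of the others, that on chromosome 3 from 55140826 to 55141268 had 19, 10 and 11 counts in PEM-HSC replicates 1, 2 and 3 and 1 in the remaining 3. That on chromosome 15 from 78504030 to 78504252 had 12, 6 and 16 in the same 3 replicates and 0 elsewhere. On chromosome 19 from 6315535 to 6316068, PLT-HSC had 1 count in all, and PEM-HSC had 71, 0, 16, 1, 48 and 1. In each of these 4 regions, PEM-HSC libraries ranged from 0 counts to their highest value within the group. No tested region had 0 counts in all 6 PEM-HSC libraries. The filter on low counts asks for enough counts in 3 libraries, the size of the smaller group. A region with 0 counts in PLT-HSC passes it with 3 of the 6 PEM-HSC libraries. One with 0 counts in PEM-HSC passes only with all 3 PLT-HSC libraries. The filter thus does not admit both directions alike, and the shared direction of the 6 regions was not tested without it.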
